A study of Mus musculus with 10 samples.

Results

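The nuclear genes for the subunits of the 5 respiratory chain complexes were examined in testes of 6-week-old mice that had developed in underfed or freely fed dams. The members are the genes whose symbols begin with Ndufa, Ndufb, Ndufc, Ndufs or Ndufv (the assembly factors named Ndufaf left out), Sdha to Sdhd, the Uqcr genes, Cyc1, the genes Cox4 to Cox8 and the Atp5 genes. The arrays carried a probe for 85 of them among 23462 named genes, 38 for complex I, 4 for complex II, 9 for complex III, 17 for complex IV and 17 for complex V. Of these, 84 passed the filter for signal above background and were tested, and the remaining gene, Cox8b, had no array on which it stood well above background. The protein-coding symbols Cox5b, Ndufb1, Ndufb4b and Ndufb4c also met the rule and are not analysed here.

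Single testes of 10 C57BL/6N males were hybridised, 1 array per animal. The 5 R offspring were sons of dams held to 50% of the mean control intake from 6.5 days post coitum and were fostered to unrelated control dams. The 5 C offspring were sons of dams that ate freely, and they stayed with their own mothers. Fostering and prenatal diet therefore differ together and cannot be told apart, both groups ate regular chow without limit after weaning, and neither group carries a genetic change. The series asks how undernutrition before birth bears on the later testis.

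Complexes I to IV pass electrons from NADH and succinate to oxygen, and complexes I, III and IV pump protons that ATP synthase, complex V, uses to make ATP. Most subunits are encoded in the nucleus, while a few core subunits are encoded in mitochondrial DNA. In the testis, germ cells replace several subunits of cytochrome c oxidase (complex IV) and cytochrome c itself by testis isoforms during spermatogenesis.

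All values are log2 signals, that is the log2 intensity of a probe minus the 75th percentile of its array, so that 0 is the level of a probe at that percentile. The share of probes well above background was 54.6% to 65.9% on R arrays and 56.8% to 64.6% on C arrays, and no spot was saturated. The first principal component of all tested probes held 60.4% of the variance and put the R arrays at -49.3 to -33.8, against 14.1 to 29.6 for 4 C arrays and 123 for C replicate 2. C replicate 2 therefore stands apart, and it had the highest value of the 10 arrays for 76 of the 84 tested members, against 35.5% of all genes. The labels and the authors' deposited table disagree on 2 arrays: its fold sets R replicate 1 among the controls and C replicate 5 among the test arrays. Slide 1 held R replicates 1 to 4 with C replicates 1 and 2, and slide 2 held R replicate 5 with C replicates 3 to 5.

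Of the 84 tested members, 26 were called lower in R testes, by small amounts, 1, Ndufa4l2, was called higher and 57 were not called (limma, adjusted p under 0.05). The genes called lower were 9 of 38 in complex I (23.7%), 3 of 4 in complex II, 3 of 9 in complex III, 4 of 16 in complex IV (25%) and 7 of 17 in complex V (41.2%). Among all 16738 genes tested, 20.5% were called lower and 15% were called higher, so that the shares of complexes I and IV lay near that of all genes. The share of members lower was 31.0%, and among the 1315 genes whose signal lay between the lower and upper quartiles of the members' signals 13.4% were called lower and 18.6% higher. The estimate was below 0 for 73 of the 84 members, with a median log2 change (R minus C) of -0.19 and a range of -0.67 to 0.31, while the median over all genes was -0.03. All 5 R arrays lay below all 5 C arrays for 25 members and above them for 1 member, against 16.3% and 12.7% of all genes. Among called members, 2 changed by more than 1.5-fold, Ndufa1 and Ndufa4, while 10.2% of all genes were called with such a fold.

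Without C replicate 2, 25 members were called lower, where 19.1% of all genes were, and the members' median was -0.12. Without R replicate 1 and C replicate 5, 8 were called lower with a median of -0.19, where 10.1% of all genes were called lower. Under the grouping of the authors' deposited table limma called 0 members and 0 of all genes. It gave 3 members an unadjusted p under 0.05. Leaving out R replicate 4 gave 13 members lower, where 14.51% of all genes were. Leaving out R replicate 1, 3 or 5 gave 15 members each, where 14.98%, 15.4% and 15.87% of all genes were called lower. In every fit without 1 array 12 of the 26 stayed called, namely Ndufa1, Ndufa4, Ndufb6, Ndufb8, Sdhc, Sdhd, Cyc1, Uqcrfs1, Cox7c, Atp5c1, Atp5md and Atp5pb. With each array's median as the zero point 49 members were called lower, where 37.0% of all genes were. With no filter on dim probes 12 members were called lower, where 12.96% of all genes were. Within slide 1, all 4 R arrays lay below both C arrays for 55 members, against 34.6% of all genes. Within slide 2, the single R array lay below all 3 C arrays for 65 members and above them for 8, against 41.3% and 34.9% of all genes. With slide as a block, 51 members were called lower, among them all 26, where 28.7% of all genes were. These were 17 genes of complex I, 4 of II, 7 of III, 9 of IV and 14 of V, and the genes higher were then Ndufa4l2 and Cox6b2.

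**Figure D1:**
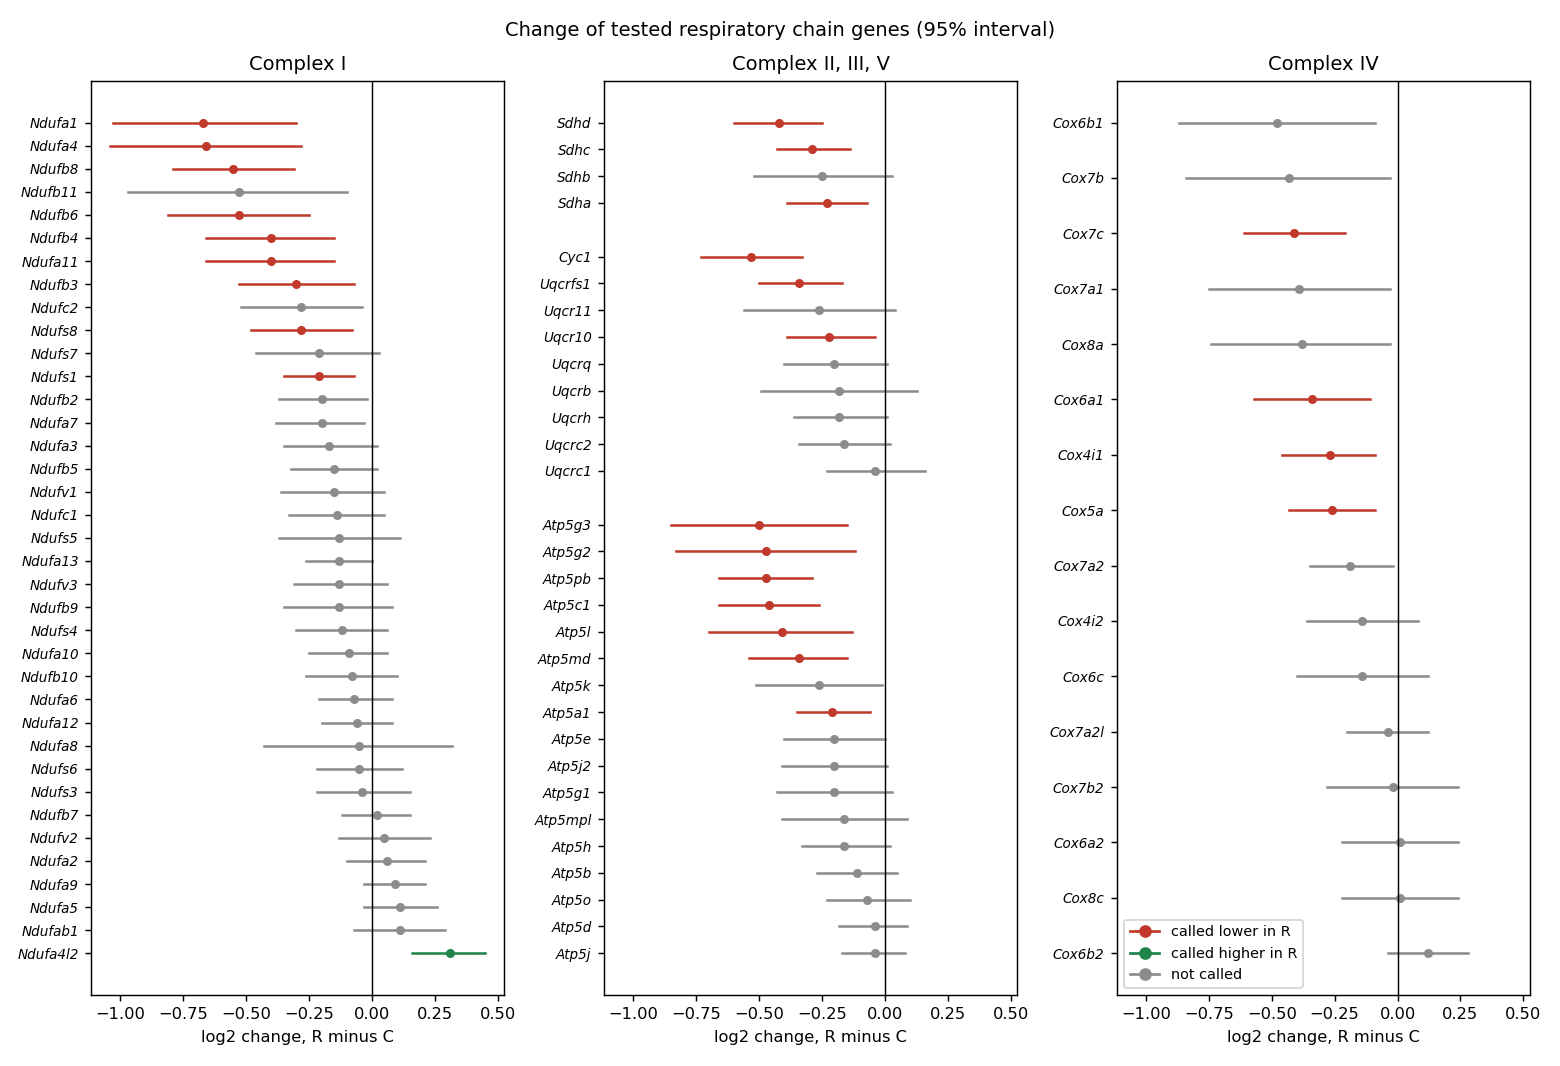
Log2 change (R minus C) of tested respiratory chain genes, each with its 95% interval from limma, grouped by complex, with the complexes II, III and V in 1 panel from top to bottom. Most genes lie left of 0, and the testis isoforms Cox7b2, Cox8c and Cox6b2 lie near the lower end of the complex IV panel, close to 0.

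Complex I takes electrons from NADH and is the largest of the complexes. Of its 38 genes, 9 were called lower and 1 higher, with a median change of -0.13. Ndufb8, an accessory subunit of the membrane arm that is widely used as a marker of assembled complex I, was at 5.15, 5.28, 5.15, 5.13 and 5.11 in R replicates 1 to 5, against 5.45, 5.99, 5.56, 5.66 and 5.93 in C replicates 1 to 5. Every R array lay below every C array, and the gene was 1.47-fold lower in R (log2 change -0.55 ± 0.11 SE, adjusted p = 0.00521 by limma). Ndufa1, an accessory subunit encoded on chromosome X, was at 3.28, 3.36, 3.12, 3.23 and 3.16 in R against 4.0, 4.51, 3.58, 3.59 and 3.80 in C. The groups did not overlap, and it showed the largest fold of all members, 1.59-fold lower in R (log2 change -0.67 ± 0.16 SE, adjusted p = 0.0122 by limma).

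Ndufb6, another accessory subunit of the membrane arm, was at 2.26 to 2.52 in R and 2.67 to 3.34 in C, and it fell by 0.53 on the log2 scale (limma adjusted p = 0.0108). Genes were counted in a complex by their symbols. Ndufa4 carries a complex I name and is counted there, although its protein has since been assigned to complex IV. It was at 0.66, 0.92, 0.40, 0.64 and 0.46 in R against 1.34, 1.82, 0.89, 1.02 and 1.31 in C, so that the highest R array passed the lowest C array. Its log2 change was -0.66 ± 0.17 (SE, limma adjusted p = 0.0145).

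The gene called higher was Ndufa4l2, a paralogue of Ndufa4 that is known as a target of the hypoxia-inducible factor HIF-1. It was at 3.01, 2.98, 3.03, 3.02 and 2.99 in R against 2.71, 2.54, 2.79, 2.80 and 2.66 in C. The R arrays lay above all C arrays and close together, and the log2 change was 0.31 ± 0.07 (SE, limma adjusted p = 0.00698), while with each array's median as the zero point it was 0.10 (limma adjusted p = 0.276). Ndufa4 and Ndufa4l2 thus moved in opposite directions.

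Among the 7 nuclear core subunits of complex I, which include those that hold the flavin and the iron-sulphur clusters, 2 were called lower and the median change was -0.15. These were Ndufs1, with a log2 change of -0.21 (limma adjusted p = 0.0255), and Ndufs8, with -0.28 (limma adjusted p = 0.0348). The other 31 genes of complex I had 7 lower and 1 higher, with a median of -0.13. Ndufa11, Ndufb3 and Ndufb4, accessory subunits named here after their values were seen, completed the genes called lower, with log2 changes of -0.40, -0.30 and -0.40. Ndufa5 and Ndufab1, also named after their values were seen, had estimates of 0.11 and were not called.

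Complex II, succinate dehydrogenase, is the one complex with all subunits encoded in the nucleus and also an enzyme of the citric acid cycle. Of its 4 genes 3 were called lower, and the median change was -0.27. Sdhd, a membrane anchor subunit, was at 2.81, 2.89, 2.81, 2.81 and 2.76 in R against 3.25, 3.48, 3.14, 3.09 and 3.22 in C. No R array reached the lowest C array, and the gene was 1.34-fold lower in R (log2 change -0.42 ± 0.08 SE, limma adjusted p = 0.00444).

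Sdhc, the other membrane anchor, was at 2.15, 2.18, 2.23, 2.25 and 2.32 in R against 2.40, 2.59, 2.58, 2.43 and 2.57 in C. Sdha, the flavoprotein that oxidises succinate, was at 3.39, 3.39, 3.33, 3.37 and 3.35 in R against 3.65, 3.80, 3.53, 3.51 and 3.48 in C. Neither gene overlapped between the groups. The log2 change was -0.29 for Sdhc (limma adjusted p = 0.00970) and -0.23 for Sdha (limma adjusted p = 0.0299). Sdha lost its call in 9 of 24 alternative fits, 5 of them fits without 1 array, where its adjusted p by limma was at most 0.0629.

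The brightest probe of Sdhb, the iron-sulphur subunit, gave 4.63, 4.73, 4.60, 4.61 and 4.45 in R against 4.86, 5.30, 4.66, 4.63 and 4.79 in C. The groups overlapped and the change of -0.25 was not called (limma adjusted p = 0.131), while with slide as a block it was -0.37 (limma adjusted p = 0.0136).

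Complex III passes electrons from ubiquinol to cytochrome c. Of its 9 genes 3 were called lower, and the median change was -0.20. Cyc1, the cytochrome c1 subunit, had the smallest adjusted p of all members, 0.00303 by limma. It was at 2.85, 2.85, 2.81, 2.86 and 2.70 in R against 3.30, 3.61, 3.18, 3.21 and 3.42 in C, clear of each other, and 1.45-fold lower in R (log2 change -0.53 ± 0.09 SE). Uqcrfs1, the Rieske iron-sulphur protein, was at 2.84, 2.85, 2.90, 2.85 and 2.78 in R against 3.19, 3.41, 3.10, 3.12 and 3.08 in C.

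The groups of Uqcrfs1 did not overlap either, and its log2 change was -0.34 (limma adjusted p = 0.00819). Uqcr10, a small subunit, overlapped between the groups with a log2 change of -0.22 (limma adjusted p = 0.0495), and it lost its call in 16 of 24 alternative fits. Uqcrq, another small subunit, had an estimate of -0.20 (limma adjusted p = 0.109), and Uqcrh, the hinge subunit between cytochrome c1 and cytochrome c, had -0.18 (limma adjusted p = 0.113). The core subunits Uqcrc1 and Uqcrc2, named here after their values were seen, had estimates of -0.04 and -0.16 and were not called. With slide as a block Uqcrq was at -0.25 (limma adjusted p = 0.0455) and Uqcrc2 at -0.22 (limma adjusted p = 0.0326).

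Complex V has a catalytic F1 head with a central stalk, a peripheral stalk and a membrane part with the rotating c-ring. All 17 of its genes had estimates below 0, 7 were called lower and the median change was -0.20. In the F1 head and central stalk 2 of 5 genes were called. Atp5c1, the gamma subunit of the central stalk, was at 4.51, 4.62, 4.54, 4.51 and 4.55 in R against 4.97, 5.34, 4.87, 4.90 and 4.98 in C. The R arrays all lay lower, with a log2 change of -0.46 ± 0.09 (SE, limma adjusted p = 0.00512). Atp5a1, the alpha subunit, named here after its values were seen, had -0.21, and the catalytic beta subunit Atp5b had -0.11 and was not called, while with slide as a block it had -0.17 (limma adjusted p = 0.0431).

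Atp5pb, the b subunit of the peripheral stalk, was at 3.43, 3.60, 3.52, 3.40 and 3.54 in R against 3.91, 4.19, 3.86, 3.83 and 4.06 in C. It was 1.39-fold lower in R, without overlap (log2 change -0.47 ± 0.08 SE, limma adjusted p = 0.00357). The other 3 genes of that stalk were not called, and the median of the 4 was -0.11. The mature c-ring protein is the same from all 3 Atp5g genes. Atp5g3 was at 3.76, 3.81, 3.62, 3.53 and 3.44 in R against 4.22, 4.70, 3.91, 3.86 and 3.97 in C.

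Its arrays did not overlap, and the log2 change of Atp5g3 was -0.50 ± 0.16 (SE, limma adjusted p = 0.0318). Atp5g2 was called lower too, at -0.47, while the brightest probe of Atp5g1 gave -0.20 and was not called, so that the 3 c-ring genes had a median of -0.47. Of the 5 small membrane subunits, Atp5l (g) and Atp5md were called lower, with log2 changes of -0.41 (limma adjusted p = 0.0306) and -0.34 (limma adjusted p = 0.0144), and the median was -0.26. Of 24 alternative fits, Atp5g3 lost its call in 8 and Atp5l in 9, while with slide as a block Atp5g1 was called too, at -0.30 (limma adjusted p = 0.0160).

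The mean over the members of a complex, taken on each array as the deviation of each gene from its mean over the 10 arrays, shows how the arrays lie. For complex II it was -0.15 ± 0.03 in R and 0.15 ± 0.14 in C (SD, n = 5 each), and for complex V it was -0.13 ± 0.06 in R and 0.13 ± 0.17 in C. In these 2 complexes every R array lay below every C array, for complex V narrowly (R replicate 2 at -0.02, C replicate 4 at -0.01). The R and C arrays overlapped for complexes I, III and IV, for complex III narrowly (R replicate 2 at -0.01, C replicate 3 at -0.02). R replicate 2 was the highest R array in all 5 complexes. C replicate 2 was at 0.35 to 0.43 in the 5 complexes, above the other C arrays.

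**Figure D2:**
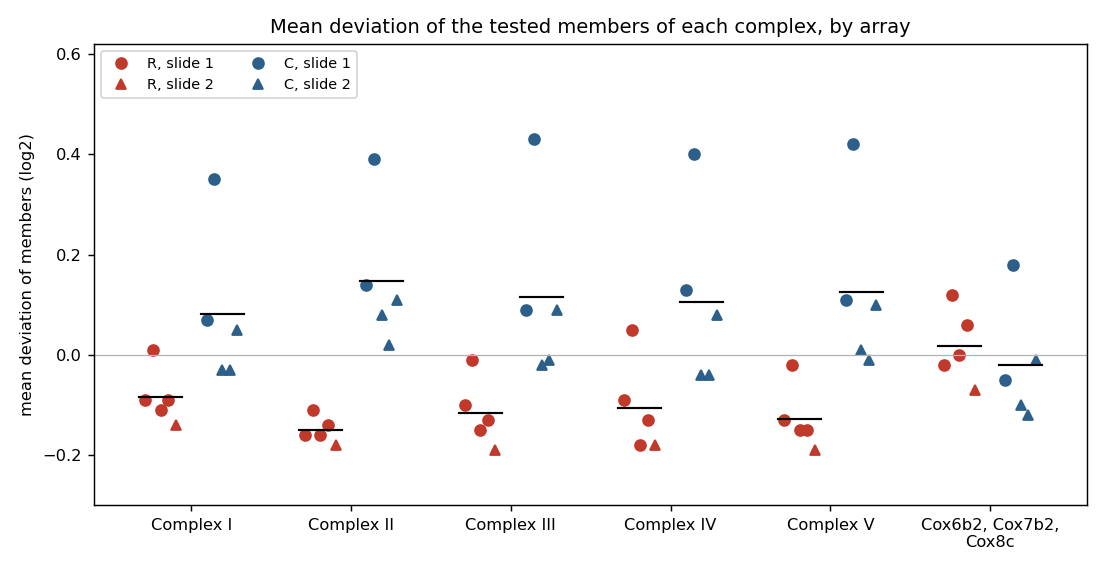
Mean deviation (log2) of the tested members of each complex, and of the 3 testis isoforms, on each array, with circles for slide 1, triangles for slide 2 and a bar at the group mean. C replicate 2 is the highest point in every column, and for complex II the R arrays (-0.18 to -0.11) lie below the C arrays (0.02 to 0.39).

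Complex IV, cytochrome c oxidase, passes electrons to oxygen and has several subunits with tissue isoforms. Of its 16 tested genes 4 were called lower and none higher by limma, with 5 genes whose R arrays all lay below the C arrays. All 4 belonged to the 9 general isoforms, which had a median change of -0.34. Cox7c, a small membrane subunit, was at 3.45, 3.52, 3.36, 3.33 and 3.42 in R against 3.79, 4.13, 3.71, 3.67 and 3.86 in C. It lay lower on every R array, with a log2 change of -0.41 ± 0.09 (SE, limma adjusted p = 0.00822).

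Cox5a, a subunit on the matrix side, was at 5.77 to 5.95 in R and 5.99 to 6.30 in C, with a log2 change of -0.26 (limma adjusted p = 0.0224). Cox4i1, the general form of the largest nuclear subunit, was at 5.88 to 6.07 in R and 6.12 to 6.46 in C, with a log2 change of -0.27 (limma adjusted p = 0.0280). Cox6a1, the form of the dimer-contact subunit Cox6a found outside heart and muscle, was at 6.65 to 6.85 in R and 6.86 to 7.41 in C, with a log2 change of -0.34 (limma adjusted p = 0.0292). In these 3 genes too, no R array reached the lowest C array. Of 24 alternative fits, the call was lost in 6 for Cox5a, in 9 for Cox4i1 and in 9 for Cox6a1.

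The heart and muscle form Cox6a2 was near background, measured on 3 of 5 R arrays and 5 of 5 C arrays, at -4.51 to -4.10 in R and -4.46 to -4.09 in C. The other tissue isoforms Cox4i2 and Cox7a1 were not called, with estimates of -0.14 and -0.39, and with slide as a block Cox7a1 was at -0.55 (limma adjusted p = 0.00872).

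The 3 testis isoforms were not called in either direction, while with slide as a block Cox6b2 was called higher in R. Cox6b2, the testis form of the subunit Cox6b at the dimer contact, was at 4.97, 5.02, 5.07, 5.08 and 5.19 in R against 4.79, 4.87, 5.05, 5.04 and 4.98 in C (log2 change 0.12, limma adjusted p = 0.204). Cox7b2 was at 3.92, 4.08, 3.91, 3.97 and 3.70 in R against 3.98, 4.30, 3.75, 3.71 and 3.95 in C (log2 change -0.02, limma adjusted p = 0.902). Cox8c was at 6.06, 6.26, 6.01, 6.11 and 5.90 in R against 6.08, 6.36, 5.91, 5.90 and 6.04 in C (log2 change 0.01, limma adjusted p = 0.951). The groups overlapped for each isoform. With each array's median as the zero point, which moves the median of all genes to -0.23, the 3 estimates were -0.09 for Cox6b2, -0.23 for Cox7b2 and -0.20 for Cox8c, and none was called by limma. With slide as a block Cox6b2 was at 0.19 (limma adjusted p = 0.0199), Cox7b2 at -0.14 (limma adjusted p = 0.193) and Cox8c at -0.09 (limma adjusted p = 0.381).

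Their partners expressed in most tissues had negative estimates that missed the threshold, and all 3 passed it with slide as a block. Cox6b1 was at -0.33, -0.07, -0.42, -0.40 and -0.51 in R against 0.38, 0.71, -0.18, -0.19 and -0.04 in C (log2 change -0.48, limma adjusted p = 0.0522). Cox7b, encoded on chromosome X, was at 0.04, 0.21, -0.07, -0.14 and -0.34 in R against 0.53, 0.93, -0.10, 0.10 and 0.39 in C (log2 change -0.43, limma adjusted p = 0.0826). Cox8a was at 3.45, 3.66, 3.23, 3.35 and 3.24 in R against 3.95, 4.29, 3.50, 3.53 and 3.59 in C (log2 change -0.38, limma adjusted p = 0.0765). In each of the 3 partners C replicates 1 and 2, both on slide 1, were the highest arrays. With slide as a block the log2 change was -0.68 for Cox6b1 (limma adjusted p = 0.00402), -0.63 for Cox7b (limma adjusted p = 0.00637) and -0.55 for Cox8a (limma adjusted p = 0.00690). Of 24 alternative fits, Cox6b1 was called lower in 9, Cox7b in 4 and Cox8a in 3, each of these including slide as a block, slide 1 alone and the array median as the zero point.

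The difference between a testis isoform and its partner within an array was therefore tested directly, over 3 pairs. Its size also holds the brightness of the probes, so only its difference between groups is read. For Cox7b2 minus Cox7b it was 3.98 ± 0.11 in R and 3.57 ± 0.18 in C (SD, n = 5 each), a difference of 0.41 with a 95% interval of 0.20 to 0.62 (exact permutation test, 2-sided, p = 0.00794, adjusted p = 0.0119). For Cox8c minus Cox8a it was 2.68 ± 0.08 in R and 2.29 ± 0.17 in C (SD, n = 5 each), a difference of 0.39 with an interval of 0.20 to 0.59 (exact permutation test, p = 0.00794, adjusted p = 0.0119). In both pairs all R arrays lay above all C arrays, and this p is the smallest that 252 regroupings can give. The regroupings took no account of slide.

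For Cox6b2 minus Cox6b1 it was 5.41 ± 0.23 in R and 4.81 ± 0.49 in C (SD, n = 5 each), a difference of 0.60 with an interval of 0.04 to 1.16 and overlapping arrays (exact permutation test, p = 0.0317, adjusted p = 0.0317). Within slide 1 Cox6b2 minus Cox6b1 was 5.09 to 5.49 in R and 4.16 to 4.41 in C. Within slide 2 it was 5.7 in the single R array and 5.02 to 5.23 in C. The call for Cox6b2 was lost without R replicate 1, 3, 4 or 5 or without C replicate 1 or 2, with a largest adjusted p of 0.0873 in the exact permutation test. For Cox7b2 and Cox8c the adjusted p stayed under 0.05 without any single array, and for Cox7b2 it was 0.127 in the exact permutation test under the grouping of the authors' deposited table.

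**Figure D3:**
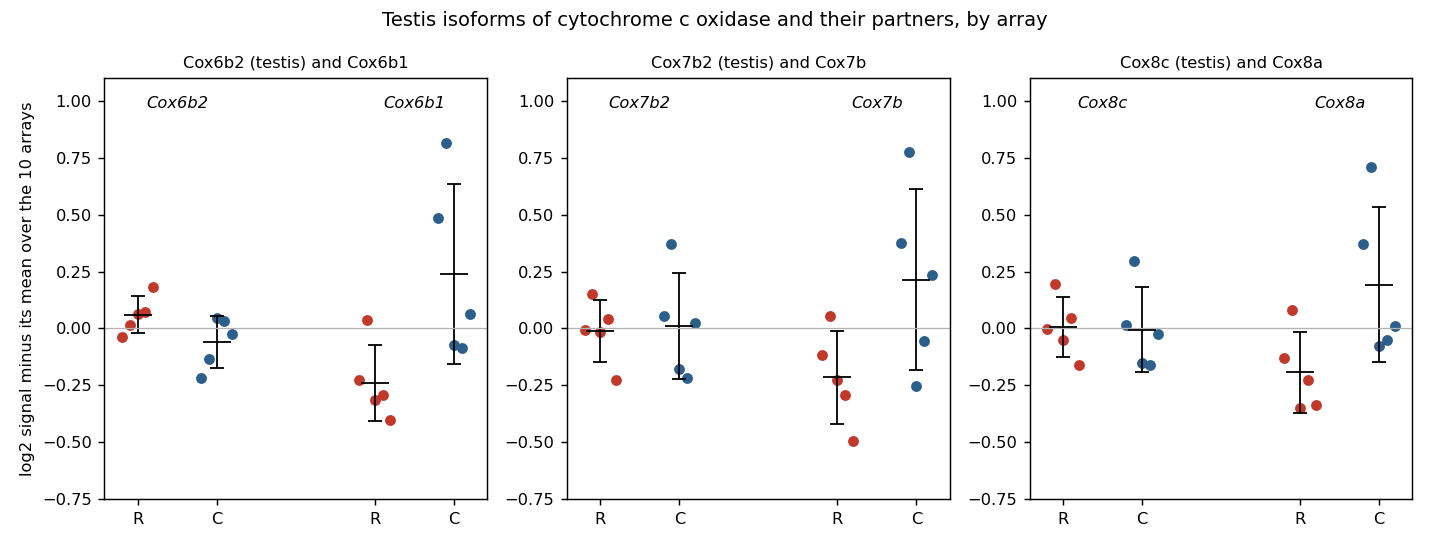
Log2 signal of the testis isoforms of cytochrome c oxidase and of their partners, minus the mean of each gene over the 10 arrays, with 1 point per array and the mean ± SD of each group. R and C points are at like heights for Cox6b2, Cox7b2 and Cox8c, while the R points of Cox6b1, Cox7b and Cox8a lie mostly below 0 with C replicates 1 and 2 at the top.

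The 150 bases upstream of the annotated start of the pairs' genes are shown because the isoforms and their partners differ in where they are expressed. They are from RefSeq (GRCm38.p6), 5′ to 3′ along the gene's strand, and capitals mark matches to the motifs described next. Cox8c is named only.

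Cox6b2, chr7:4753095-4753244, minus strand: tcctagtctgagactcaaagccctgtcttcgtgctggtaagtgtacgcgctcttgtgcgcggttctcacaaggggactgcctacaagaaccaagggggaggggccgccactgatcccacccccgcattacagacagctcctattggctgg
Cox6b1, chr7:30626115-30626264, minus strand: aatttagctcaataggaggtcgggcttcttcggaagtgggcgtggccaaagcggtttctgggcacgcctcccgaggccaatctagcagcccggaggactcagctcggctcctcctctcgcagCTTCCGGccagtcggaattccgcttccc
Cox7b2, chr5:71548206-71548355, minus strand: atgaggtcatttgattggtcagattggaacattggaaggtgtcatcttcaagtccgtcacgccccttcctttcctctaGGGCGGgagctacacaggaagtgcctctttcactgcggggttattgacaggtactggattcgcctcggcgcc
Cox7b, chrX:106015550-106015699, plus strand: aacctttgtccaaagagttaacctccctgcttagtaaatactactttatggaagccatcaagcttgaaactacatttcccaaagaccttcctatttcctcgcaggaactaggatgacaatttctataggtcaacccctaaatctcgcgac
Cox8a, chr19:7217617-7217766, minus strand: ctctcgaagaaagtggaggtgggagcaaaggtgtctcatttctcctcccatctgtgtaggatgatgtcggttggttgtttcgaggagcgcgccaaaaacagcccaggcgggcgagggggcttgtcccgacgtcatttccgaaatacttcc

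In these windows Cox6b1 held a match to the GABP motif and Cox7b2 a match to the SP1 motif. The windows of Cox6b2, Cox7b and Cox8a held none of the 5 motifs searched.

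Nuclear respiratory genes are known for promoters with sites for NRF1 (nuclear respiratory factor 1), GABP (also called NRF2), YY1 and SP1. In RefSeq, 68 of the 85 members had promoter entries, 73 in all, of 250 bases before to 50 bases after the start. The NRF1 letters, GCGCA then any base then GCGC, were found on either strand in 24.7% of the members' entries and in 4.60% of all 32851 promoter entries. CCGGAAG (GABP) was found in 23.3% of the members' entries and 8.86% of all, and AANATGGCG (YY1) in 13.7% and 2.38%. GGGCGG (SP1) was found in 41.1% of the members' entries and 35.7% of all, and TGACGTCA, the letters of a cyclic AMP response element, in 5.48% and 1.79%.

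Among the entries of members called lower, 8 of 22 held the NRF1 letters and 0 of 22 the YY1 letters. Among entries of members not called these were 10 of 50 and 10 of 50. The number of entries is small, entries of 1 gene overlap, and these shares are descriptions with no test. A run of letters is not a binding site, and the windows miss sites farther away. The 150 bases upstream of 3 members called lower are shown for their NRF1 letters. In the Sdha window capitals mark 3 NRF1 matches. In the Sdhd window they mark an NRF1 and then a GABP match, and in the Cox6a1 window an SP1, an NRF1, a further SP1 and a GABP match, in that order. No matches overlap in these windows.

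Sdha, chr13:74350241-74350390, minus strand: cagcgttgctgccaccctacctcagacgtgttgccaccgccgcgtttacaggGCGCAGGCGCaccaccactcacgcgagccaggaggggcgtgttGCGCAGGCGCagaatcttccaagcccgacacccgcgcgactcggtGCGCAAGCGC
Sdhd, chr9:50603850-50603999, minus strand: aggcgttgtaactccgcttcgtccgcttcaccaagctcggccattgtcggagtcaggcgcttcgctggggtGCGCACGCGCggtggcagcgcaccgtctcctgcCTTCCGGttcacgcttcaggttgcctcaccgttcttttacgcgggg
Cox6a1, chr5:115348959-115349108, minus strand: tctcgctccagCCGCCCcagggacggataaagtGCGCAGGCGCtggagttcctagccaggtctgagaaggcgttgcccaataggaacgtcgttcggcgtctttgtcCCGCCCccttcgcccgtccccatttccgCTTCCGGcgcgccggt

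Where a gene had more than 1 probe, the dimmer probes mostly gave lower changes than the brightest one. For 18 members, 20 other probes were tested, and 16 of them (80%) had a more negative change than the brightest probe, against 49.9% of 7040 other probes over all genes. Of the 20, 12 (60%) were called lower, while the brightest probe of the same gene was called lower in 6 (30%). Over all genes these shares were 20.1% and 20.1%. All genes of this paragraph were named after their values were seen, other than Sdhb and Cox7c.

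For Sdhb the other probe gave a mean of 2.39 in R and 2.99 in C, a log2 change of -0.60 (limma adjusted p = 0.00346), against -0.25 with the brightest. For Atp5g1 it gave -0.48 (limma adjusted p = 0.00322) against -0.20, and for Ndufv1, the flavin-binding subunit of complex I, -0.37 (limma adjusted p = 0.00392) against -0.15. Cox7c ran the other way, at 0.01 for its other probe and -0.41 for the brightest. The calls of Sdhb, Atp5g1, Ndufv1 and Cox7c therefore depend on the probe. Many subunit genes have near-identical processed copies in the genome, and a share of such signal in any probe was not tested. With the mean of all probes of a gene, 32 members were called lower, where 20.8% of all genes were.

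**Figure D4:**
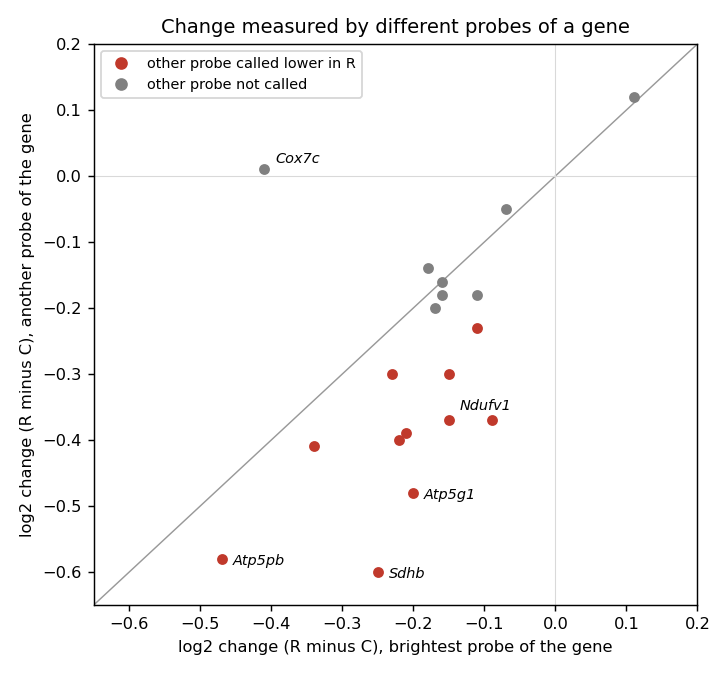
Log2 change (R minus C) given by further tested probes of member genes (vertical axis) against that of each gene's brightest probe (horizontal axis), with the line of equal change. Most points lie below the line, with Sdhb, Atp5g1 and Ndufv1 among them, and Cox7c lies above it.

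Cytochrome c carries electrons between complexes III and IV and exists in a general form, Cycs, and a testis form, Cyct. Both were called lower. Cycs was at 2.87 to 3.11 in R and 3.40 to 4.12 in C (log2 change -0.66, limma adjusted p = 0.00591). Cyct was at 3.42 to 3.52 in R and 3.53 to 4.06 in C (log2 change -0.35, limma adjusted p = 0.0223). In both genes all R arrays lay below all C arrays, so that this testis form fell, in contrast to the values of the 3 testis isoforms of complex IV.

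Of 48 genes for factors that assemble the complexes, 46 were tested, 20 were called lower and 2 higher, with a median change of -0.19, while 20.5% of all genes were called lower. With each array's median as the zero point 31 were called lower and none higher, where 37.0% of all genes were called lower. Leaving out R replicate 1, 3 or 4 gave 10, 11 and 9 lower, where 14.98%, 15.4% and 14.51% of all genes were. With no filter on dim probes 8 were lower, where 12.96% of all genes were. Without R replicate 1 and C replicate 5 it was 6, where 10.1% of all genes were lower. Under the authors' grouping it was 0 by limma, as it was for all genes. By complex, in the fit with the 75th percentile, 6 of 14 were lower for complex I, 2 of 4 for complex II, 1 of 5 for complex III, 10 of 20 for complex IV and 1 of 3 for complex V. Tmem70, which helps to build ATP synthase, was at 0.49 to 0.71 in R and 1.08 to 1.36 in C (log2 change -0.61, limma adjusted p = 0.00145). Tmem126b and Ndufaf6, both needed for complex I, had log2 changes of -0.80 (limma adjusted p = 0.00489) and -0.63 (limma adjusted p = 0.00545).

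For complex II, Sdhaf3 had a log2 change of -0.66 (limma adjusted p = 0.0128). Cox18, which inserts a mitochondrially encoded subunit of complex IV into the membrane, had -0.51 (limma adjusted p = 0.00786), and the copper chaperone Cox17 had -0.47 (limma adjusted p = 0.0149). The factors called higher were Atpaf2, a chaperone of the F1 head, at 0.31 (limma adjusted p = 0.0331), and Cox10, an enzyme that makes haem for complex IV, at 0.21 (limma adjusted p = 0.0385). With each array's median as the zero point Atpaf2 was at 0.10 and Cox10 at 0.01, and neither was called.

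Of 12 nuclear regulators of respiratory genes 3 were called lower and 1 higher, where 20.5% and 15% of all genes were. Their median change was -0.04. With each array's median as the zero point 5 were lower and 1 higher, where 37.0% of all genes were lower. Gabpa, Yy1 and Tfb2m, the last a transcription factor of mitochondrial DNA, had log2 changes of -0.24 (limma adjusted p = 0.0363), -0.28 (limma adjusted p = 0.0410) and -0.32 (limma adjusted p = 0.0427). Ppargc1a, a coactivator known to raise the expression of mitochondrial genes, was at -1.90 to -1.69 in R and -3.07 to -2.24 in C. It was higher on every R array (log2 change 0.72, limma adjusted p = 0.00569), opposite to the direction of most subunits, and it was 0.51 with each array's median as the zero point (limma adjusted p = 0.00713). No named probe measured the 13 protein-coding genes of mitochondrial DNA.

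All germ cell markers and 7 of 8 Sertoli markers passed the filter on signal, as the labelled tissue requires. Some cell markers differed between the groups, and 20.5% of all genes were called lower and 15% higher. Of 5 spermatocyte markers 4 were called lower, with a median change of -0.63, and the summed linear signal of the list was 24.3 to 27.3 in R and 33.5 to 44.2 in C, in multiples of each array's 75th percentile. Hormad1, a protein of meiotic chromosome axes, had a log2 change of -0.97 (limma adjusted p = 0.00175). Of 7 Sertoli markers 5 were called lower and 1 higher, with a summed signal of 171 to 220 in R and 183 to 246 in C.

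Of 5 spermatogonia markers 2 were lower and 1 higher, with a summed signal of 4.67 to 5.47 in R and 6.95 to 10.4 in C. Of 6 Leydig markers 2 were lower (19.3 to 24.9 in R, 24.1 to 43.5 in C). The round spermatid markers had 0 of 5 called by limma (46.3 to 58.4 in R, 45.9 to 63.8 in C). The elongating spermatid markers had 1 of 5 lower (989 to 1138 in R, 947 to 1141 in C). Summed spermatocyte and spermatogonia signals thus did not overlap between the groups, while those of spermatids did. A linear sum mostly follows the brightest genes of a list. Among spermatogonia markers that was Stra8 (mean log2 signal 1.82 in R, log2 change -0.78), and the others had negative means. Kit was also lower (log2 change -0.82), while Gfra1 was higher (0.37). The brightest Sertoli markers moved in opposite directions, Clu by -0.44 and Rhox8 by 0.91. The Sertoli sums overlapped although most of these markers were called lower. The part of these differences in the values of the respiratory chain genes was not tested. In whole testis, fewer cells of a type and less RNA per cell cannot be told apart.

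Markers of the other cells also varied. Of 5 macrophage markers 2 were lower (1.84 to 3.00 in R, 2.74 to 4.47 in C), where 20.5% of all genes were. With slide as a block 4 were lower, against 28.7% of all genes. With each array's median as the zero point 5 were, against 37.0% of all genes. Of 2 tested erythroid markers 1 was lower (3.01 to 6.76 in R, 4.96 to 9.62 in C). Of 4 endothelial markers 1 was higher (0.477 to 0.557 in R, 0.325 to 0.413 in C), where 15% of all genes were. Of 5 myoid markers 1 was higher too (10.2 to 14.1 in R, 9.18 to 15.3 in C). The 4 adipocyte markers were not called and spread widely (2.68 to 10.8 in R, 1.71 to 7.52 in C). Cfd, Fabp4 and Plin1 were highest on R replicate 2 and C replicate 2 (2.88 and 1.93 for Cfd). Adipoq was highest on C replicate 5 (1.49).

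**Figure D5:**
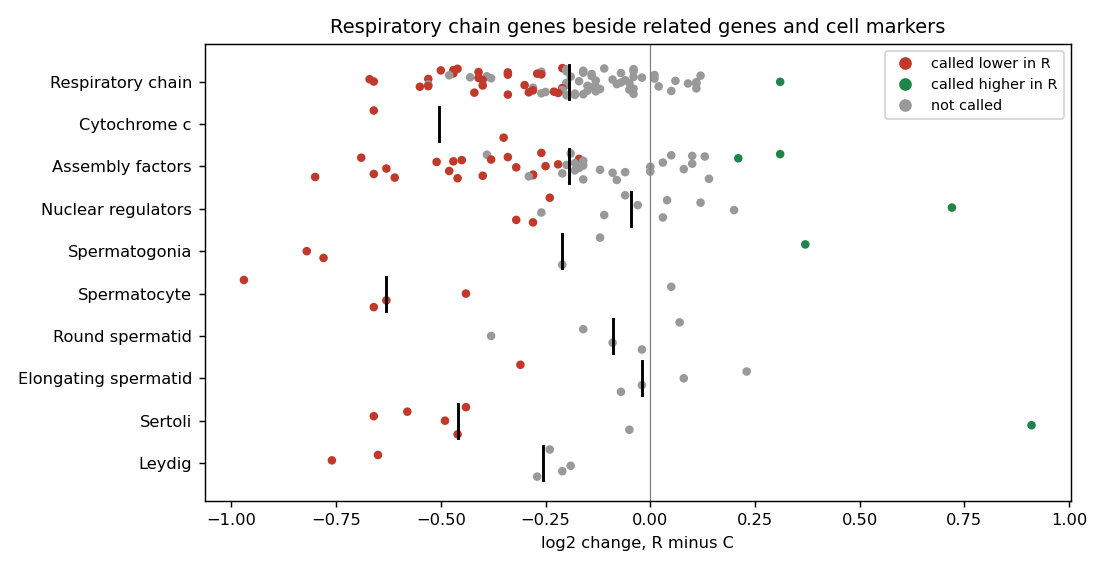
Log2 change (R minus C) of the respiratory chain subunit genes, of cytochrome c, assembly factors and nuclear regulators, and of markers of germ, Sertoli and Leydig cells, with 1 point per gene and a bar at the median of each list. Subunits and assembly factors have medians of -0.19 each, spermatocyte markers of -0.63 and nuclear regulators of -0.04.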

How the data were processed

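Messenger RNA of 10 single mouse testes (5 R, 5 C) was measured on 1-colour Agilent arrays, and groups were taken from the labels. Per the submitters' processing notes, the deposited spot intensity values are output of Agilent Feature Extraction 12.0.3.1. The software had subtracted background within each array, per the file headers, and had not normalised between arrays. A table of the authors' comparison gives log2 ratios and p-values for 2266 probes. Its 10 remaining per-sample columns were not used here.

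Spots of a probe were averaged without control and outlier spots. From the log2 processed intensity, the 75th percentile of the array's non-control spots was subtracted to give the log2 signal. Probes were named by accession through a RefSeq gene table of GRCm38.p6 (33767 of 56605). The file headers name another build, mm9, so probe coordinates are not given, and the coordinates of promoter windows are RefSeq's on GRCm38.p6. The 33851 probes that stood well above background on 5 or more arrays were fitted with limma 3.58.1 in R 4.3.3 (lmFit, eBayes, 2-sided), with Benjamini-Hochberg adjustment over all of them, and an adjusted p under 0.05 is a call. A gene stood for its brightest probe, and 1 member enters the counts and medians but is not reported here by itself. Isoform pairs were compared with an exact permutation test in scipy 1.17.1, adjusted over the 3 pairs.

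The members, the lists and the promoter motifs were chosen with earlier results of these data known. The rule for named genes took the testis isoforms and their partners, Sdha to Sdhd, Cyc1, the members of smallest p in complexes I, III, IV and V, the called members of largest fold, members not measured on every array, and, from every other list, as many as 4 genes with the smallest p. Alternatives covered background correction, normalisation, filters, slides, probe summary, the authors' grouping and leaving out each array. The files hold no mean spot signal, so the normexp alternative used the median spot signal, which departs from the written plan. On simulated data of 33851 probes with 200 changed, 82% of 2-fold and 97% of 4-fold changes were recovered and 5 of 33651 unchanged probes were called. The simulated noise was independent between probes and held no slides. The largest fold of a member was 1.59, so these figures do not give the recovery of changes as small as those of the members. Precision is limited by the number of arrays. The labels give no litters, and the 10 testes entered the tests as separate animals.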

Additional observations from a re-analysis of the deposited data

Results flagged for a closer look

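For 9 of the 72 gene or complex values checked within a group of 5 arrays, 1 array lay so far from the other 4 that the gap took up more than 0.71 of the group's whole range. Chance flags about 1 in 20 such groups, but these share arrays and genes and are not independent, so their number was not tested. All 9 flags involve 1 of 2 arrays at the upper end. R replicate 2 was the highest R array for Ndufb8, where the gap was 0.775 of the range (5.28 against 5.11 to 5.15 on the other R arrays). It was also the highest for Ndufb6 (0.737 of the range, 2.52 against 2.26 to 2.33), for Uqcrh (0.744, 5.31 against 5.15 to 5.19) and for Cox6a1 (0.788, 6.85 against 6.65 to 6.69). In each of these genes that array lies on the side of the C arrays.

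C replicate 2 was the highest C array for Uqcrh (0.726 of the range, 5.64 against 5.27 to 5.37) and for Atp5c1 (0.768, 5.34 against 4.87 to 4.98). The mean deviation of complex I on it was 0.35 against -0.03 to 0.07 on the other C arrays, a gap of 0.723 of the range. The gap was 0.760 of the range for complex III (0.43 against -0.02 to 0.09) and 0.730 for complex V (0.42 against -0.01 to 0.11).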

How the results depend on the processing

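The count of 26 members lower in R became 49 with each array's median as the zero point, where 37.0% of all genes were lower. The median of all genes moved to -0.23 there. The members' median minus that of all genes stayed at -0.16, as it must, since this choice shifts all genes of an array alike. That difference was -0.08 with array weights, -0.10 without C replicate 2, -0.21 with slide as a block and -0.25 on slide 1 alone. It became 51 with slide as a block, 12 with no filter on dim probes and 8 without R replicate 1 and C replicate 5. Under the grouping of the authors' deposited table it was 0, as it was for all genes, and limma gave 3 members an unadjusted p under 0.05. On slide 2 alone, with 1 R array, the members' median change was -0.16. Leaving out 1 array gave 13 to 28 members lower. The count was 15 without R replicate 1 and 15 without R replicate 3, where 14.98% and 15.4% of all genes were lower. It was 13 without R replicate 4 and 15 without R replicate 5, where 14.51% and 15.87% of all genes were. The count of members higher in R, 1 in the fit of all arrays and in each fit without 1 array, was 0 with the array median and under the authors' grouping and on slide 2, 3 with array weights and 2 with slide as a block. The 26 members kept estimates below 0 in every setting run.

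With the array median as the zero point the median change was -0.34 for complex I, -0.47 for II, -0.40 for III, -0.43 for IV and -0.41 for V. On slide 1 alone complex II had a median of -0.39. Leaving out 1 array gave medians of -0.17 to -0.06 for complex I, -0.30 to -0.22 for II, -0.23 to -0.12 for III, -0.25 to -0.17 for IV and -0.23 to -0.13 for V.

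The change of Cox6b2 minus that of Cox6b1 was 0.44 to 0.71 without 1 array, 1.05 on slide 1 alone, 0.68 without R replicate 1 and C replicate 5 (exact permutation test, adjusted p = 0.0857) and 0.49 under the authors' grouping (exact permutation test, adjusted p = 0.127). The range without 1 array was 0.36 to 0.48 for Cox7b2 and 0.34 to 0.43 for Cox8c. The difference was 0.28 for Cox7b2 under the authors' grouping (exact permutation test, adjusted p = 0.127). That for Cox8c was 0.58 on slide 1 alone and 0.26 on slide 2 alone. The causes of these moves were not tested. Slide 2 holds 1 R array and each fit without arrays has fewer samples. No paired analysis was possible because the replicate numbers only follow the order of the samples within a group, and the labels name no litter, day or other link between an R and a C animal.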

Other observations

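The authors' deposited table held 6 of the 107 probes of respiratory chain subunit genes, and 2266 of all 56605 probes. Its log2 ratio set R replicates 2 to 5 and C replicate 5 over R replicate 1 and C replicates 1 to 4. In the authors' deposited table the ratio was -0.16 for Sdha (p = 0.00853), -0.21 for Uqcrfs1 (p = 0.0285) and -0.14 for Atp5a1 (p = 0.00633). It was -0.11 for Cox7a2 (p = 0.0376), -0.24 for Ndufa10 (p = 0.0268) and 0.14 for Ndufa5 (p = 0.0137), and the authors' deposited table gave all 6 a q of 0.515. Its Ndufa10 probe is the dimmer one of that gene, and the brightest probe had a log2 change of -0.09 between R and C and was not called.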
